A study of Mus musculus with 8 samples.

Results

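Sarcomere and fiber-type genes are described here by their ERRα ChIP-seq peaks in skeletal muscle and liver. Peaks show where ERRα was found and not how strongly a gene was expressed. The set holds 49 genes out of 19188 gene names in the 4 peak lists. It was chosen by name and comprises 13 slow isoform genes, 15 fast isoform genes, 2 developmental myosin heavy chain genes and 19 genes whose products serve both fiber types. The slow class also takes in genes whose product is more abundant in slow or oxidative fibers, and the fast class those more abundant in fast fibers. These classes were assigned by name and not from expression in these mice. A gene was counted as having a peak when the authors' annotation assigned it an interval at most 20000 bp from a transcription start site (TSS). By this rule 45 of the 49 genes had at least 1 peak in at least 1 list, and together they had 231 of the 63890 intervals that lie this close to a TSS. The remaining 4 genes are 8.16% of the set (3.22–19.2), against 11.5% of all gene names without such a peak. All gene names are those the lists name at any distance. Of 21896 protein-coding genes, named in the lists or not, 35.2% had no such peak. No peak was found near *Myoz2*, *Xirp2*, *Myom1* or *Myl1*, and *Myl1* was named nowhere in the lists.

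The mice were 2 to 3 months old males on a C57BL/6N background, either wild type (WT) or carrying ERRα 3SA, a phospho-mutant ERRα in which serine phosphosites of the amino-terminal domain were mutated. Chromatin of gastrocnemius and soleus was pooled from 5 mice per genotype, and chromatin of liver from 2 mice per genotype, and 3 immunoprecipitations were combined per library according to the labels. Each genotype and tissue had 1 ERRα library with 1 peak list, compared by the authors with input DNA, which leaves differences between genotypes without replicates and without a test. Gastrocnemius is mostly fast and soleus contains many slow fibers, and the pool does not tell the muscles or the fiber types apart.

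The sarcomere is the contractile unit of striated muscle. Thick filaments of myosin, held at the M-band, pull on thin filaments of actin, tropomyosin and troponin, which are anchored in the Z-disc. Slow and fast fibers build the same filaments from different isoform genes, and fiber type follows from which of them are expressed. ERRα is an orphan nuclear receptor best known for its control of mitochondrial and fuel metabolism genes, and it binds a nonamer, the ERR response element (ERRE).

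The lists held 25427 peaks in WT muscle, 50647 in 3SA muscle, 21813 in WT liver and 29040 in 3SA liver. Read numbers are not part of the lists and the depth of the libraries is therefore unknown. Each peak has the authors' score, with 30 as the lowest value in every list. Scores were used to rank peaks within their own list, where rank 1 is the highest score, and ranks are restated as a percentage from the top of that list. Tied peaks share the best rank of the tie. A score of 30 thus corresponds to the top 66.4% of the WT muscle list and the top 64.8% of the 3SA muscle list.

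The sequences of 13 sites are shown first, since they carry the motifs to which the results return. They are given 5′ to 3′ from GRCm38 patch 6 and are 151 bases long. The first group comprises muscle sites whose interval holds the ERRE, TCAAGGTCA, which stands in capitals and is read on the strand that spells it. The *Tmod1* line also holds a lower-case AAGGTCA that is no ERRE. In the *Myl3* line the earlier run of capitals is the MEF2 core TAAAAATA as read on the opposite strand. The *Tmod1* line lies in intron 1 (chr4:46040942-46041092, minus strand), the *Xirp1* line in an intron (chr9:120020586-120020736, minus strand), and the *Myl3* line in an intron (chr9:110765662-110765812, minus strand). The *Actn3* line lies in an intron near its start (chr19:4877554-4877704, minus strand). The line assigned to *Myh1* lies upstream within *Myh2*, where 129 of its bases are coding (chr11:67188422-67188572, minus strand). The *Flnc* line holds 95 coding bases (chr6:29442925-29443075, plus strand), and the *Des* line is intergenic (chr1:75343906-75344056, plus strand).
Tmod1: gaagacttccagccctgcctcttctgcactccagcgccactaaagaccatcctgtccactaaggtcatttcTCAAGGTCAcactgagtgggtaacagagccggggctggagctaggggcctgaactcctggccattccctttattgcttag
Xirp1: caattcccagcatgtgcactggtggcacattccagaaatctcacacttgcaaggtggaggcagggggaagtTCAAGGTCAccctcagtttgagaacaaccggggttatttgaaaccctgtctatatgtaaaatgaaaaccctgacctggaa
Myl3: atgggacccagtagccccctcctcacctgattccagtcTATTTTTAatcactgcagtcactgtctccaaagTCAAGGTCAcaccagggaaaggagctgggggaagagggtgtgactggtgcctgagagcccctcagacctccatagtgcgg
Actn3: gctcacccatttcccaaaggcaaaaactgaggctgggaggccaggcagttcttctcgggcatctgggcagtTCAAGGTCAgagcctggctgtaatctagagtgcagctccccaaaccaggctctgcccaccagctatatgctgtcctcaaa
Myh1: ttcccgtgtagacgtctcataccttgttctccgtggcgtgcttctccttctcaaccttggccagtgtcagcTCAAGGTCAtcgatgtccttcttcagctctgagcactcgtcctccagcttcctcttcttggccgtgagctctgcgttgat
Flnc: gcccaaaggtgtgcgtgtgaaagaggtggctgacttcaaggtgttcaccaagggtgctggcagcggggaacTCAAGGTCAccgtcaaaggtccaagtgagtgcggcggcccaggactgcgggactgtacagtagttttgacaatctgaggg
Des: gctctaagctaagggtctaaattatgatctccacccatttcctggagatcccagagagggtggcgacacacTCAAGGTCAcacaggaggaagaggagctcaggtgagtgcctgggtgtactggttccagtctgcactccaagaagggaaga

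The second group shows high-ranking muscle sites without the exact ERRE in their central bases. The *Myom3* line (chr4:135745782-135745932, minus strand, intron of *Il22ra1*) has in capitals the relaxed form TNAAGGTCA. In the lines of the upstream *Des* site (chr1:75349587-75349737, plus strand, intergenic) and of *Tnni1* (chr1:135800243-135800393, plus strand, intron) the capitals mark the 7-base ERRE core AAGGTCA, which occurs in each of them more than once. The line of the *Tcap* promoter (chr11:98383601-98383751, plus strand) has none of these motifs. The third group shows liver sites with the ERRE in capitals, upstream of *Myh4* (chr11:67236194-67236344, plus strand, intergenic) and at a *Tpm3* promoter (chr3:90072350-90072500, plus strand).
Myom3: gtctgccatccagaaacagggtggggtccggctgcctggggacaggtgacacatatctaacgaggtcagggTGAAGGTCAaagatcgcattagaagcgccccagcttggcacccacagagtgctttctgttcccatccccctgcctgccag
Des upstream: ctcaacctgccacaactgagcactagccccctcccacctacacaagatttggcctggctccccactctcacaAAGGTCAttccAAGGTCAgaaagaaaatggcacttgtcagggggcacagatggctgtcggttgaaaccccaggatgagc
Tnni1: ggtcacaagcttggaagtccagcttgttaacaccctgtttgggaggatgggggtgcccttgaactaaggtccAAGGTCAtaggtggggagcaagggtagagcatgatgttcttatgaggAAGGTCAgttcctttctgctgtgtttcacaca
Tcap: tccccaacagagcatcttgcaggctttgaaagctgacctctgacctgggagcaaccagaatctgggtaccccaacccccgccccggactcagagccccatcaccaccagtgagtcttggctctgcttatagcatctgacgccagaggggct
Myh4: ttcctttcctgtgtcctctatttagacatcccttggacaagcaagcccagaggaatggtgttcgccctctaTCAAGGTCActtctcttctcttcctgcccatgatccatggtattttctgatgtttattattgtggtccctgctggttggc
Tpm3: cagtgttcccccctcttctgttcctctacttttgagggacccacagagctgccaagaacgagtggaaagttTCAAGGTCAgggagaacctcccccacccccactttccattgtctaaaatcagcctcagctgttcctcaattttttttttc

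In muscle, 41 of the 49 genes had an ERRα peak in at least 1 genotype (83.7%, 95% Wilson interval 71.0–91.5), against 75.3% of all gene names, and the highest-ranking sites of the set lay at *Tmod1*, *Xirp1*, *Mylpf*, *Myom3* and *Tcap*. A peak was present for 30 of 49 genes in WT muscle (61.2%, 95% Wilson interval 47.2–73.6), against 45.1% of all gene names. In 3SA muscle it was 37 of 49 genes (75.5%, 61.9–85.4), against 63.5% of all names. In liver the corresponding counts were 17 in WT (34.7%, 22.9–48.7) and 24 in 3SA (49%, 35.6–62.5), against 39.2% and 49.2% of all names. The share in WT muscle was thus above that of all names beyond counting error, whereas the intervals of the other 3 lists included it. Against the protein-coding genes the 3SA muscle share was also above, since 46.6% of them had a peak there and 33.6% in WT muscle. Their liver shares, 29.1% in WT and 36.6% in 3SA, lay within the intervals of the set. Both muscle calls depended on the settings. With distances up to 50000 bp the WT muscle interval included the share of all names (63.3%, 49.3–75.3, against 54.4%), and with a score of at least 50 the 3SA muscle share was above it (44.9%, 31.9–58.7, against 17.6%). The intervals cover counting error only and say nothing of the spread between animals.

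Strong peaks were counted separately. A peak in the top 5% of its list was found for 6 genes in WT muscle (12.2%, 5.73–24.2), against 4.09% of all names, namely *Mylpf*, *Myom3*, *Myoz3*, *Tcap*, *Tmod1* and *Xirp1*. In 3SA muscle 13 genes had such a peak (26.5%, 16.2–40.3), against 7.17% of all names. They were the same 6 genes together with *Actn3*, *Des*, *Myl3*, *Myot*, *Tnni1*, *Tnnt3* and *Tpm2*. In each liver list, *Xirp1* was the single gene of the set with a peak in the top 5% (2.04%, 0.361–10.7), against 3.47% of all names in WT and 4.49% in 3SA.

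**Figure D1:**
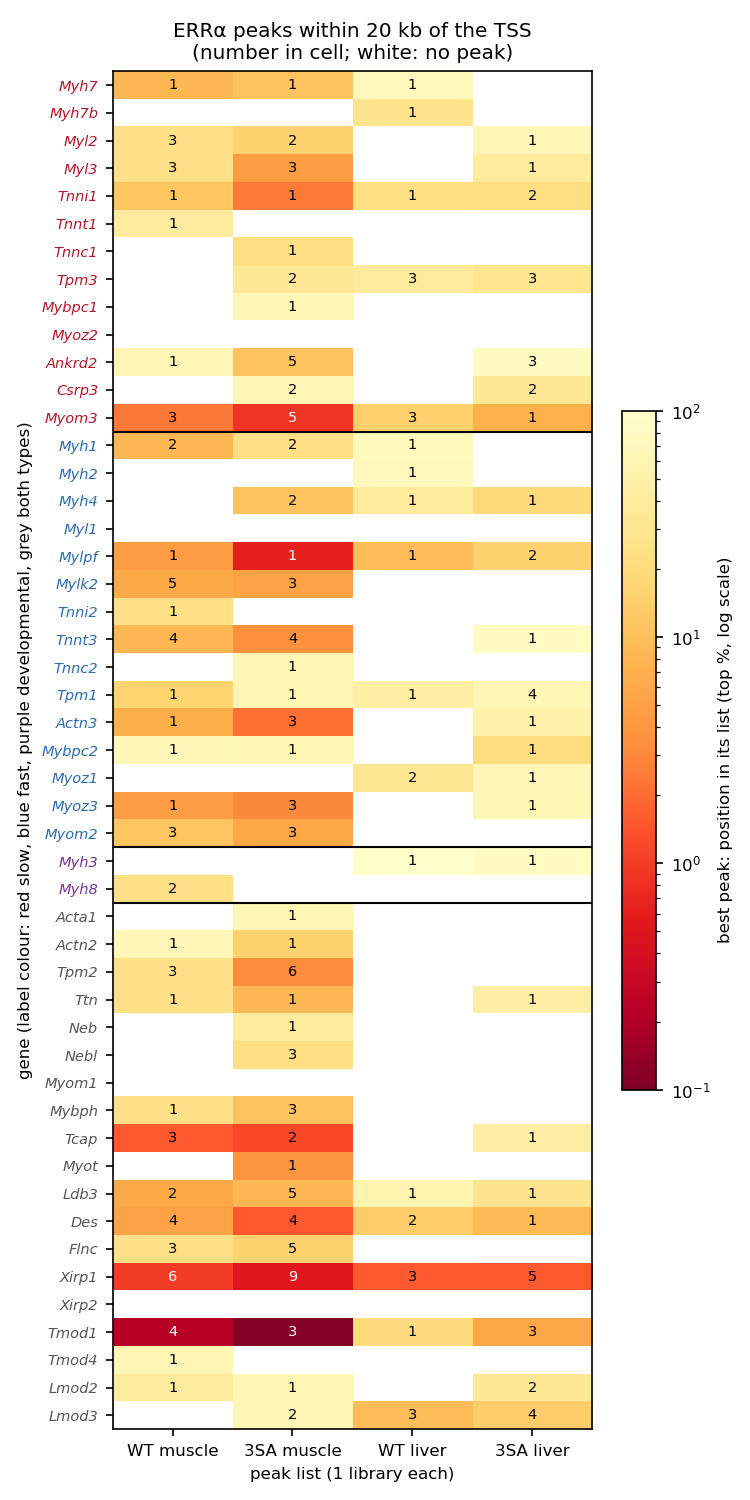
Best peak of each of the 49 genes in each of the 4 peak lists. Rows are genes grouped by class and columns are lists of 1 library each. The colour gives the position of the gene's best peak within its own list on a log scale and the number in a cell the peaks within 20 kb of the TSS. *Tmod1* holds the darkest cells in muscle, at the top 0.22% in WT and the top 0.107% in 3SA.

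Slow and fast isoform genes had peaks at similar frequencies when peaks of all scores were counted. In WT muscle 7 of 13 slow genes (53.8%, 29.1–76.8) and 10 of 15 fast genes (66.7%, 41.7–84.8) had a peak, and in 3SA muscle 10 slow (76.9%, 49.7–91.8) and 11 fast genes (73.3%, 48.0–89.1). In WT liver they were 5 slow (38.5%) and 6 fast genes (40.0%), and in 3SA liver 7 slow (53.8%) and 8 fast genes (53.3%). The shares of all names were 45.1% in WT muscle, 63.5% in 3SA muscle, 39.2% in WT liver and 49.2% in 3SA liver. The intervals of both classes included them in every list. The intervals of the slow and the fast share overlapped widely in every list, so with these few genes no difference between the classes was detectable. With a score of at least 50, 3 of 13 slow and 7 of 15 fast genes had a WT muscle peak, and 5 and 7 a 3SA muscle peak. Of all names, 10.5% and 17.6% had such peaks. Top 5% peaks were held by 1 slow gene (*Myom3*, 7.69%) and 2 fast genes (*Mylpf* and *Myoz3*, 13.3%) in WT muscle, against 4.09% of all names. In 3SA muscle they were held by 3 slow genes (*Myl3*, *Myom3*, *Tnni1*, 23.1%) and 4 fast genes (*Actn3*, *Mylpf*, *Myoz3*, *Tnnt3*, 26.7%), against 7.17% of all names. Among the genes with a peak, the median position of the best peak was the top 24.6% for slow and the top 8.63% for fast genes in WT muscle, and the top 13.3% and the top 5.86% in 3SA muscle. For all gene names with a peak it was the top 39.1% in WT and the top 23.7% in 3SA muscle. Of the 19 genes serving both fiber types, 12 had a peak in WT muscle (63.2%, 41.0–80.9) and 16 in 3SA muscle (84.2%, 62.4–94.5).

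**Figure D2:**
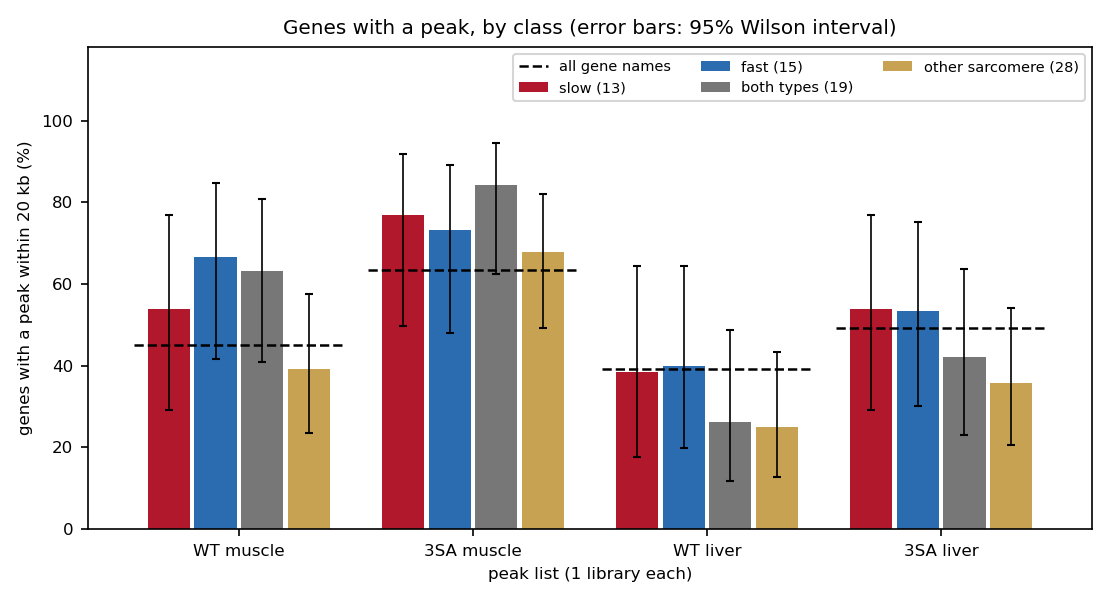
Share of genes with an ERRα peak within 20 kb of the TSS, in percent, for slow, fast and shared isoform genes and for 28 further sarcomere genes, in each peak list. Bars are shares of 1 list, error bars 95% Wilson intervals, and dashed lines the share of all 19188 gene names. In WT muscle the bars of slow and fast genes stand at 53.8% and 66.7%, with error bars that overlap.

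Among thick filament genes, the heavy chain genes *Myh7*, *Myh1* and *Myh8* had a WT muscle peak and *Myh7*, *Myh1* and *Myh4* a 3SA muscle peak, with best positions between the top 8.63% and the top 24.6%. *Myh7*, the slow heavy chain, had 1 peak in each muscle list, at different positions: −2695 bp in WT (score 65, rank 2194, top 8.63%) and −9599 bp in 3SA (score 57, rank 5574, top 11.0%). The 3SA site overlapped a WT liver peak at −9533 bp (rank 16370, top 75%). *Myh7b*, a slow-tonic heavy chain, had a peak in WT liver alone (rank 6227, top 28.5%).

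The fast heavy chain genes lie side by side on chromosome 11. *Myh1*, which encodes the IIx chain, had its best WT muscle peak at −11552 bp within *Myh2* (score 65, rank 2194, top 8.63%), with the ERRE shown above 65 bp from the interval's centre and no 3SA counterpart. In 3SA muscle its peaks were in exons at 6368 bp (score 30) and 14994 bp (score 42, top 23.7%). *Myh4*, which encodes the IIb chain, had 2 peaks in 3SA muscle, at 7714 and 14560 bp and both at rank 5574, and none in WT muscle. In liver it had a WT peak in an exon (rank 8204) and a 3SA peak at −1543 bp (score 104, rank 5616, top 19.3%) with the ERRE at the very centre. *Myh2*, the IIa chain gene, had a single peak, at 24 bp in WT liver (score 36, rank 15928). Of the developmental chains, *Myh8* had 2 peaks in WT muscle alone (best rank 6260, top 24.6%) and *Myh3* a peak in each liver list with a score of 32. No heavy chain gene had a muscle site shared between genotypes, and reads that align equally well to several of these similar genes had been removed by the authors.

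Among the light chain genes the positions ranged widely. *Mylpf*, the fast regulatory light chain, had 1 interval at the same site in both muscle lists, 1574 bp in WT (score 104, rank 1155, top 4.54%) and 1441 bp in 3SA (score 464, rank 321, top 0.634%), with centres 133 bp apart. Liver peaks overlapped the same stretch, at rank 2091 (top 9.59%) in WT and rank 4514 (top 15.5%) in 3SA, and their centres were annotated to the transcript end of *Septin1*. *Myl3*, the slow essential light chain, had a peak in its first kilobases in both genotypes, with the ERRE and a MEF2 core in the central window of each. It ranked 6260 (score 42, top 24.6%) in WT and 2394 (score 100, top 4.73%) in 3SA, with centres 114 bp apart, and a 3SA liver peak overlapped it (rank 11212, top 38.6%). *Myl2*, the slow regulatory light chain, had 3 WT and 2 3SA muscle peaks, none above the top 15.5% and none shared at the centres. *Mylk2*, the kinase that phosphorylates the regulatory light chain in skeletal muscle, had 5 WT and 3 3SA muscle peaks and none in liver. Its intron site was shared, with rank 1543 (top 6.07%) in WT and rank 2721 (top 5.37%) in 3SA and centres 295 bp apart, just inside the 300 bp limit.

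The myosin-binding proteins had no muscle peak in the top 5% of a list. *Mybpc1* (slow) had 1 peak, in 3SA muscle at 19393 bp with a score of 30. *Mybpc2* (fast) had 1 peak with a score of 30 in each muscle list and a 3SA liver peak at −3604 bp (rank 6120, top 21.1%). *Mybph* had its best peaks at rank 6260 in WT and rank 5574 in 3SA, at different positions.

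At the M-band, where thick filaments are cross-linked, *Myom3* had the highest-ranking sites of any gene placed in the slow class. Its downstream site ranked 600 in WT (score 168, top 2.36%, centred in an exon at 14086 bp) and 439 in 3SA (score 370, top 0.867%, centred in an intron at 13458 bp). These intervals overlapped but their centres were over 300 bp apart, so by centres they were not shared. The other *Myom3* site, in an intron of the neighbouring *Il22ra1*, was present in all 4 lists: rank 659 (top 2.59%) in WT muscle, 921 (top 1.82%) in 3SA muscle, 3204 (top 14.7%) in WT liver and 2150 (top 7.4%) in 3SA liver. Its centres lay between −13951 and −13707 bp. *Myom2*, the fast myomesin gene, had peaks in muscle only, with an intron site at rank 2872 (top 11.3%) in WT and rank 2967 (top 5.86%) in 3SA, and a second shared site farther downstream (top 16.0% and 15.5%).

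Among thin filament genes, *Tmod1* held the highest-ranking peak of the whole set in both muscle lists. Its product, tropomodulin, caps the pointed ends of actin filaments. The intron 1 interval had rank 56 in WT (score 904, top 0.22%) and rank 54 in 3SA (score 1460, top 0.107%), with centres 54 bp apart. Both intervals held 2 ERREs, one of them printed above, but neither lay in the central 300 bp, which held a MEF2 core instead. Liver peaks were found at the same place with the ERRE in the central window, at rank 4523 (top 20.7%) in WT and rank 1666 (top 5.74%) in 3SA. A second muscle site of *Tmod1*, near 13.7 kb in WT, ranked 2194 (top 8.63%) in WT and 11987 (top 23.7%) in 3SA. *Tmod4* had 1 weak WT muscle peak (score 33). The leiomodins, which nucleate actin filaments, ranked low in muscle, at best rank 10219 for *Lmod2*, and higher in liver for *Lmod3*, where a peak upstream of the gene ranked 2091 (top 9.59%) in WT and 3915 (top 13.5%) in 3SA.

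Of the troponin genes, *Tnni1*, the slow inhibitory subunit, had a site just inside the gene in all 4 lists. It ranked 2872 in WT muscle (score 57, top 11.3%, 467 bp), 1233 in 3SA muscle (score 176, top 2.43%, 756 bp), 4981 in WT liver (top 22.8%) and 6466 in 3SA liver (top 22.3%). The muscle centres were 289 bp apart. *Tnnt3*, the fast tropomyosin-binding subunit, had 4 peaks in each muscle list, the best at rank 2194 (score 65, top 8.63%, 1317 bp) in WT and rank 1773 (score 129, top 3.5%, 1082 bp) in 3SA. *Tnni2* and *Tnnt1* had 1 WT muscle peak each (ranks 6260 and 9931), whereas *Tnnc1* and *Tnnc2*, the slow and fast calcium-binding subunits, had 1 3SA muscle peak each (ranks 11987 and 32824). None of these 4 genes had a liver peak.

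The tropomyosins differed in tissue. *Tpm2* had 3 WT and 6 3SA muscle peaks and none in liver. Its best 3SA peak lay at −9761 bp in an exon of *Tln1* (score 139, rank 1608, top 3.17%) and another in its 3′ untranslated region at 8062 bp (score 119, rank 1955, top 3.86%), while the best WT peaks were at the top 24.6%. *Tpm3*, the slow isoform, had no WT muscle peak, 2 low-ranking 3SA muscle peaks (best rank 17698, top 34.9%) and 3 peaks in each liver list. A promoter of *Tpm3* carried a peak with the ERRE in both livers, at rank 15928 (top 73.0%) in WT and 9882 (top 34%) in 3SA. Another promoter peak, at −520 bp in 3SA liver alone, also held an ERRE near its centre (rank 8754, top 30.1%). *Tpm1* had 1 peak in each muscle list, at rank 4057 (top 16.0%) in WT and with a score of 30 in 3SA, at different positions. In liver it had 1 WT and 4 3SA peaks, and the 3SA liver peak at 1438 bp overlapped the WT muscle peak. *Acta1*, skeletal α-actin, had 1 peak with a score of 30 in 3SA muscle. *Neb* had 1 peak (rank 19604) and *Nebl* 3 peaks (best rank 11987), in 3SA muscle alone. For a gene with peaks in 1 genotype alone and ranks this low, a difference between genotypes cannot be told apart from the longer 3SA list.

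In the Z-disc, the promoter of *Tcap*, which encodes telethonin, the cap of titin, carried a high-ranking peak in both muscle lists. It ranked 399 in WT (score 236, top 1.57%, −135 bp) and 617 in 3SA muscle (score 296, top 1.22%, 85 bp), with centres 220 bp apart, and liver had only a 3SA peak 893 bp downstream of the start (top 44.8%). A second *Tcap* site within the neighbouring *Stard3* was also shared, at rank 1759 in WT and rank 2394 in 3SA. *Actn3*, the fast-fiber α-actinin, had a shared intron site at 10124 bp in WT (score 73, rank 1805, top 7.1%) and 10104 bp in 3SA (score 110, rank 2166, top 4.28%). A stronger 3SA peak at 312 bp, with the ERRE in its centre (score 192, rank 1077, top 2.13%), had no WT muscle counterpart, and a 3SA liver peak lay within 300 bp of it. *Actn2*, the α-actinin of all fibers, had a promoter peak in 3SA (rank 7851, top 15.5%) and a WT peak of score 30.

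*Xirp1*, an actin-binding adaptor, had the most peaks of the set, 6 in WT and 9 in 3SA muscle. Its intron site, with the ERRE printed above, was strong in every list: rank 257 (score 326, top 1.01%) in WT muscle, 264 (score 529, top 0.521%) in 3SA muscle, 342 (score 557, top 1.57%) in WT liver and 443 (score 651, top 1.53%) in 3SA liver. Its centre fell in a SINE repeat in 3 of the 4 lists. A downstream site near 12.2 kb was also in all 4 lists, at the top 24.6% in WT muscle, 1.8% in 3SA muscle, 3.47% in WT liver and 3.09% in 3SA liver. *Des*, the intermediate filament that ties Z-discs together, had its upstream site in all 4 lists, between −10672 and −10645 bp. That site ranked 1338 (score 90, top 5.26%) in WT muscle, 780 (score 248, top 1.54%) in 3SA muscle, 2973 (top 13.6%) in WT liver and 2597 (top 8.94%) in 3SA liver. The *Des* site with the ERRE, at −16202 bp in WT and −16163 bp in 3SA, was found in muscle only and ranked 10219 and 11987.

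The other Z-disc genes gave peaks that were mostly not shared. *Ldb3* had a WT promoter interval at −340 bp (score 81, rank 1543, top 6.07%), overlapped by a 3SA interval at −1024 bp (rank 19200, top 37.9%). *Myoz3* had intervals in the neighbouring *Synpo* at rank 1186 (top 4.66%) in WT and rank 1552 (top 3.06%) in 3SA that overlapped without matching at the centres. *Myoz1* had liver peaks alone. *Myot*, myotilin, had 1 strong peak in 3SA muscle, at −1950 bp in a SINE repeat (score 126, rank 1899, top 3.75%), and none in the other lists. *Flnc* had 3 WT and 5 3SA muscle peaks, of which 1 was shared, and its best 3SA peak held the ERRE (rank 7765, top 15.3%). *Ankrd2*, a stretch-responsive protein of slow muscle, had 1 WT and 5 3SA muscle peaks, with a weak shared site at 275 bp in WT (rank 15596) and 325 bp in 3SA (rank 32824). Its best 3SA muscle peak, in an exon at 4319 bp, was not shared (score 57, rank 5574, top 11.0%). *Csrp3*, the muscle LIM protein, had 2 3SA muscle peaks of score 30. *Ttn*, titin, had 1 peak per muscle list at different positions, at rank 6260 in WT and rank 4392 in 3SA.

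Muscle peaks of the set lay more often between 1 and 5 kb from the TSS than other peaks did. The difference was beyond counting error in both genotypes if peaks are taken as independent. They are not, since the WT peaks came from 30 genes and the 3SA peaks from 37. The lists also share sites, with 23 peaks of each partnered in the other. Of the 65 WT and 95 3SA muscle peaks of the set, 5 and 5 were annotated promoter-TSS (7.69%, 3.33–16.8, and 5.26%, 2.27–11.7), against 11.9% and 8.18% of all peaks within 20 kb. *Tcap* was the sole gene with a promoter peak in both genotypes. The other promoter peaks were at *Ldb3*, *Lmod2*, *Mylk2* and *Tpm2* in WT and at *Actn2*, *Ankrd2*, *Myl2* and *Tpm1* in 3SA muscle. The intervals of both shares included those of all peaks. Peaks up to 1 kb from the TSS were 15.4% (8.58–26.1) of the WT and 11.6% (6.59–19.6) of the 3SA muscle peaks of the set, against 26.2% and 17.4% of all, and the interval excluded the share of all peaks in WT only. Peaks between 1 and 5 kb were 38.5% (27.6–50.6) and 37.9% (28.8–47.9), against 24.3% and 25.4%. Among the strong peaks, 1 of 7 in WT and 3 of 18 in 3SA muscle lay within 1 kb, compared with 43.2% and 33.8% of all strong peaks. The called intervals were also wider, with a median of 653 bp in WT and 585 bp in 3SA against 470 and 461 bp for all peaks within 20 kb.

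**Figure D3:**
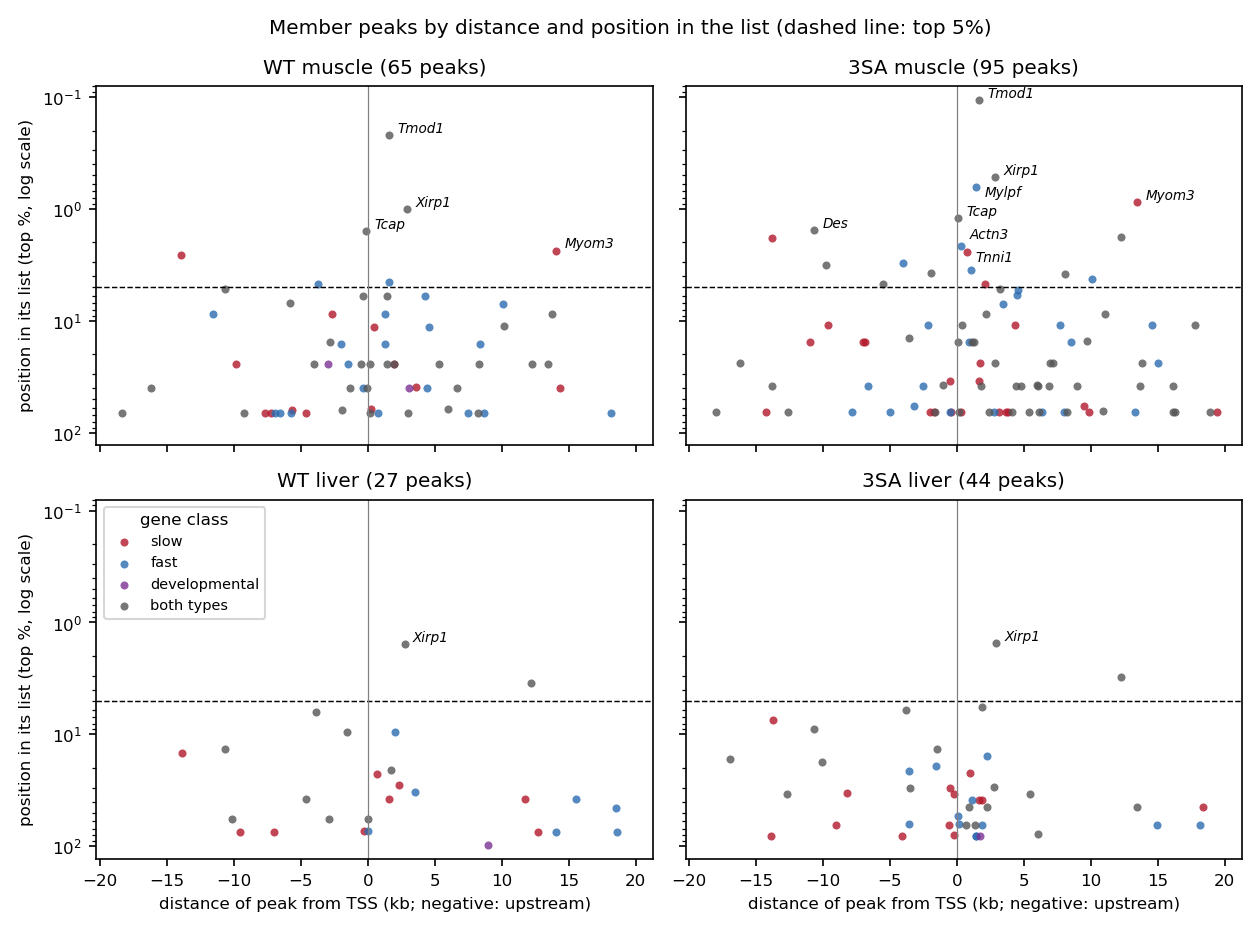
Each peak of the set by its distance from the TSS in kb and its position within its own list, as the top percentage on a log scale with strong peaks at the top. Panels are the 4 lists, colours the gene class, and the dashed line marks the top 5%. Above that line lie 7 of 65 peaks in WT muscle and 18 of 95 in 3SA muscle, most of them away from the start site, and 2 peaks in each liver list, both at *Xirp1*.

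Between genotypes, 26 genes had a peak in both muscle lists (53.1%, 39.4–66.3, against 33.3% of all names), 4 in WT alone (8.16%, 3.22–19.2, against 11.8%) and 11 in 3SA alone (22.4%, 13–35.9, against 30.2%). The WT-only genes were *Myh8*, *Tmod4*, *Tnni2* and *Tnnt1*. The 3SA-only genes were *Acta1*, *Csrp3*, *Lmod3*, *Mybpc1*, *Myh4*, *Myot*, *Neb*, *Nebl*, *Tnnc1*, *Tnnc2* and *Tpm3*. With the 3SA list shortened to the length of the WT list by score, the genes with a peak numbered 30 in WT and 29 in 3SA muscle, and those in 1 genotype alone 7 and 6. For all names the shares at equal length were 45.1% with a peak in WT, 42.1% in 3SA, 20.3% in WT alone and 17.3% in 3SA alone, so the surplus of 3SA-only names was absent there as well.

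A site was called shared when the centres of a WT and a 3SA interval lay within 300 bp. By this rule 14 genes had a shared muscle site (28.6%, 17.8–42.4), against 13.5% of all names. They comprised the slow genes *Ankrd2*, *Myl3*, *Myom3* and *Tnni1*, the fast genes *Actn3*, *Mylk2*, *Mylpf*, *Myom2* and *Tnnt3*, and *Des*, *Flnc*, *Tcap*, *Tmod1* and *Xirp1*. Of the WT muscle peaks of the set, 23 of 65 (35.4%, 24.9–47.5) had a 3SA partner, against 23.4% of all WT muscle peaks within 20 kb. Of the 3SA peaks, 23 of 95 (24.2%, 16.7–33.7) had a WT partner, against 12.9% of all. Strong peaks of the set had a partner in 5 of 7 cases in WT and in 12 of 18 cases in 3SA muscle, against 81.8% and 70.3% of all strong peaks, so the shares in the set were not above those of other strong peaks.

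With liver as the contrast, 24 genes had peaks in both tissues (49%, 35.6–62.5, against 45.8% of all names), 17 in muscle and not in liver (34.7%, 22.9–48.7, against 29.5% of all names) and 4 in liver and not in muscle (8.16%, 3.22–19.2, against 13.2%). All 3 intervals included the share of all names. Of the protein-coding genes the shares were 34.2%, 21.0% and 9.52%. Those for both tissues and for muscle and not liver lay below the set's intervals. Against all names, muscle and not liver changed with the score limit. It was 28.6% (17.8–42.4) against 8.22% at a score of at least 50, and 16.3% (8.51–29.0) against 2.31% at a score of at least 100. Genes without a liver peak there had none at or above the limit: *Tcap* and *Actn3* had 3SA liver peaks of scores 49 and 43. The same limit applied to all lists, though strong peaks had median scores of 168 and 173 in muscle and 411 and 502 in liver. Among the muscle-only genes were *Mylk2*, *Myom2*, *Tpm2*, *Flnc* and *Myot*, and the liver-only genes were *Myh2*, *Myh3*, *Myh7b* and *Myoz1*. Peaks in all 4 lists were found for 8 genes (16.3%, 8.51–29.0, against 16.0%). A liver site shared between genotypes was found for 8 genes (16.3%, 8.51–29.0, against 22.5%), namely *Des*, *Lmod3*, *Mylpf*, *Myom3*, *Tmod1*, *Tnni1*, *Tpm3* and *Xirp1*.

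When the intervals of the set were merged across lists wherever they shared a base, 154 sites resulted. Of these, 110 were in a single list and 8 were in all 4 lists. The latter belonged to 6 genes: *Xirp1* with 3 sites, and *Des*, *Mylpf*, *Myom3*, *Tmod1* and *Tnni1* with 1 site each. Of the 124 muscle sites, 30 were in both genotypes and 26 were also in a liver list. Peaks of all gene names were not merged in this way. These site counts therefore do not show whether the set differs from other genes. By shared bases, 34 of 65 WT muscle peaks of the set (52.3%, 40.4–64.0) overlapped a 3SA peak and 33 of 95 3SA peaks (34.7%, 25.9–44.7) a WT peak, against 30.6% and 16.9% of all peaks within 20 kb.

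The ERRE was found in muscle peaks of the set at shares whose intervals included those of all muscle peaks. It was present on either strand of the central 300 bp of 4 WT (6.15%, 2.42–14.8) and 5 3SA muscle peaks (5.26%, 2.27–11.7), against 4.45% and 4.86% of all peaks within 20 kb. The WT peaks were at *Des*, *Myh1*, *Myl3* and *Xirp1* and the 3SA peaks at *Actn3*, *Flnc*, *Myl3*, *Tmod1* and *Xirp1*, so that *Myl3* and *Xirp1* held it in both. In liver it was found in 2 WT (7.41%, 2.06–23.4) and 6 3SA peaks (13.6%, 6.4–26.7), against 15.2% and 14.9% of all. The reversed motif ACTGGAACT was in none of the 231 windows of the set, and in 0.369 to 0.481% of all peaks within 20 kb. Among the strong muscle peaks the ERRE was in 1 of 7 in WT and 3 of 18 in 3SA, against 15.5% and 17.3% of all strong peaks.

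The 7-base ERRE core AAGGTCA, which every ERRE contains, was searched after the sequences had been seen. It was in the centre of 13 WT (20%, 12.1–31.3) and 24 3SA muscle peaks of the set (25.3%, 17.6–34.8), against 13.8% and 15.2% of all peaks within 20 kb. The difference was beyond counting error in 3SA only, with peaks of the same gene taken as independent. In liver it was in 11 of 27 WT (40.7%, 24.5–59.3) and 15 of 44 3SA peaks (34.1%, 21.9–48.9), against 35.8% and 35.5%. The reversed core ACTGGAA was in 2 WT and 4 3SA muscle peaks of the set (3.08% and 4.21%), against 5.12% and 5.17% of all. Strong 3SA muscle peaks held the core in 9 of 18 cases (50%, 29.0–71.0), against 44.4% of all strong peaks. The E-box CAGCTG, bound by myogenic factors, was in 23.1% (14.5–34.6) of WT and 22.1% (14.9–31.4) of 3SA muscle peaks of the set, against 21.5% and 22.8% of all. The MEF2 core TAAAAATA was in 3 WT (4.62%, 1.58–12.7) and 2 3SA muscle peaks (2.11%, 0.579–7.35), against 1.09% and 1.01%, with *Myl3* and *Tmod1* in both lists and *Myoz3* in WT. A motif match describes the sequence and does not show which protein was bound there.

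**Figure D4:**
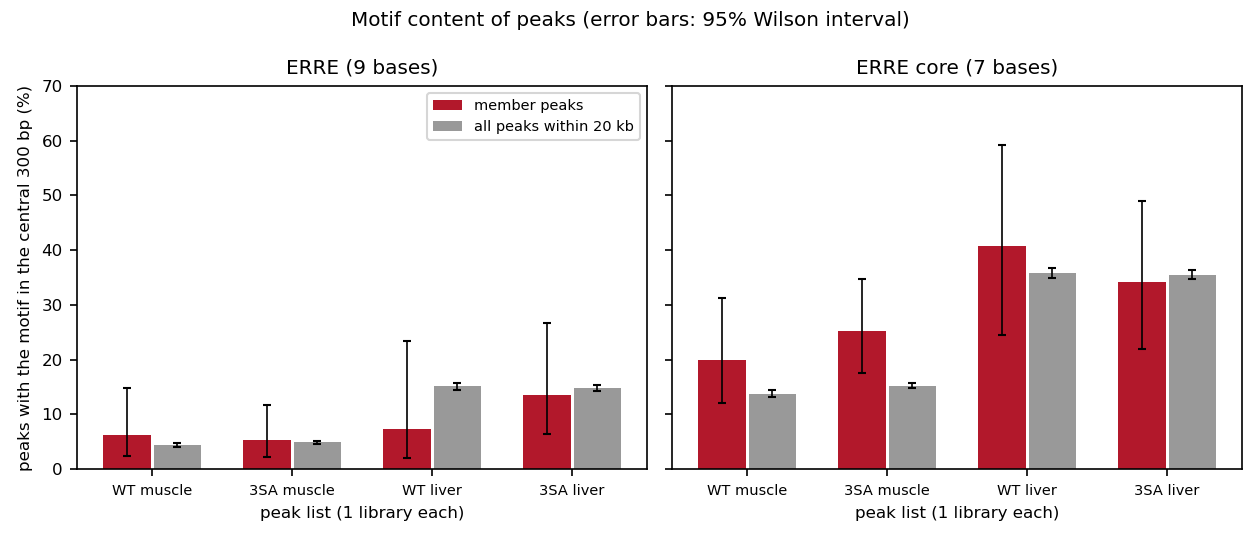
Share of peaks, in percent, with the ERRE (left) or its 7-base core (right) in the central 300 bp, for peaks of the 49 genes and for all peaks within 20 kb of a TSS, in each list. Bars are shares of 1 list and error bars 95% Wilson intervals. The core was at 25.3% of 3SA muscle peaks of the set and at 15.2% of all, and the liver bars of both groups stand between 34.1% and 40.7%.

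A further list of 28 sarcomere genes outside the set, with cardiac isoforms, chaperones and muscle ubiquitin ligases, was counted in the same way. A peak was found for 11 (39.3%, 23.6–57.6) in WT muscle, 19 (67.9%, 49.3–82.1) in 3SA muscle, 7 in WT liver and 10 in 3SA liver, and all 4 intervals included the share of all names.

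At the edge of the distance rule, the farthest muscle peaks counted were those of *Mybpc1* at 19393 bp and *Ldb3* at 18898 bp in 3SA, both with a score of 30, and *Actn2* at −18370 bp in WT. Just outside lay a 3SA muscle peak of *Des* at −20643 bp (score 30) and one of *Myh8* at 21421 bp (score 53). Some liver peaks of higher rank lay farther out, at −25742 bp from *Myoz2* in WT (top 10.3%) and −25723 bp in 3SA (top 4.15%), and near 29.3 kb from *Myom3* (top 2.4% in WT and 2.56% in 3SA).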

How the data were processed

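The analysis started from 4 deposited ERRα peak lists, those of WT muscle, 3SA muscle, WT liver and 3SA liver. Inputs (4 samples) were not analysed here. Per the submitters' processing notes and methods, the authors used Trimmomatic 0.36 for trimming and BWA 0.7.12 for mapping to mm10. They kept uniquely aligned reads and removed duplicates with Picard 2.0.1. Peaks were called with MACS2 2.1.1.20160309 against input DNA and annotated with HOMER 4.9.1. The called peaks were further filtered to a stricter false discovery rate than the default. The deposited lists give each peak a score without a fixed range, its distance to the TSS in bp, and CpG and GC contents as a fraction of the interval, as deposited. Distances decided which peaks were counted, and scores ranked peaks within a list. In the alternatives with a minimum score, the same limit also decided which peaks of all 4 lists were counted.

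Intervals were read as 1-based positions. All lay within the chromosomes of GRCm38, and the GC content recomputed from that genome was within 0.001 of the deposited fraction for every interval. Gene names of hosts came from RefSeq. Partners were looked for among all peaks of the other list, whatever their distance from a TSS. Motifs were searched on both strands in 300 bp around interval centres. Gene names in any list at any distance served as background, and where stated the protein-coding genes of RefSeq. Since each group is 1 library, no test was made, and shares have 95% Wilson intervals. Intervals for shares of peaks take each peak as independent, although a gene can have several. Printed windows hold no untranslated exon sequence.

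The genes named with full values are those with a muscle peak in the top 5% of a list, a shared muscle site or an ERRE at a muscle peak's centre, and the slow and fast isoform genes with a muscle peak. The others are named with fewer values. The sites printed as sequences were chosen after their values were seen. The members and lists were chosen with earlier results of these data known. Alternatives were minimum scores (50, 100), equal list lengths, distances of 5000 and 50000 bp, other sharing rules, promoters by distance, another motif, whole intervals, last ranks for ties, and, chosen after seeing the data, the ERRE core, E-box and MEF2 motifs and peaks outside repeats. The motif and overlap functions were tested on simulated data. Python 3.11.15, numpy 2.4.6, pandas 2.3.3, pysam 0.24.0, matplotlib 3.10.9 and samtools 1.23.1 were used. Strong peaks of single genes of the further sarcomere list are not reported here.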

Additional observations from a re-analysis of the deposited data

How the results depend on the processing

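No paired analysis was possible because each genotype and tissue has 1 library, and no replicate could be left out. The score limit mattered most, since most peaks of the set score under 50. With a score of at least 50, genes with a peak numbered 15 in WT and 22 in 3SA muscle and 9 in WT and 14 in 3SA liver. These are 30.6%, 44.9%, 18.4% and 28.6% of the set, against 10.5%, 17.6%, 19.4% and 28.5% of all names. Of these, 14 were in both muscle lists (28.6%, against 7.11% of all names) and 1 in WT muscle alone (2.04% against 3.35%). In liver but not muscle there were 7 (14.3% against 18.3%). Slow genes with a peak fell to 3 in WT muscle, 5 in 3SA muscle, 3 in WT liver and 5 in 3SA liver. Fast genes fell to 7 in WT muscle, 7 in 3SA muscle, 2 in WT liver and 3 in 3SA liver. Promoter peaks were then 2 in WT and 1 in 3SA muscle and 0 in WT and 2 in 3SA liver, and peaks with an ERRE 2 in WT muscle and 1 in WT liver. With a score of at least 100, genes with a peak numbered 5 in WT and 13 in 3SA muscle and 5 in WT and 7 in 3SA liver. Of these, 5 were in both muscle lists (10.2%, against 3.39% of all names) and 0 in WT muscle alone (against 0.349%). In muscle but not liver there were 8 (16.3% against 2.31%) and in liver but not muscle 2 (4.08% against 11.2%). A shared muscle site was left for 5 genes (10.2% against 2.91%). Slow genes then numbered 1, 3, 1 and 1 and fast genes 1, 4, 1 and 2 in WT muscle, 3SA muscle, WT liver and 3SA liver, promoter peaks 1, 1, 0 and 0, and peaks with an ERRE 1, 3, 0 and 3. At that limit 26.5% of the genes against 7.17% of all names had a 3SA muscle peak, and 10.2% against 3.74% a WT muscle peak. In liver the shares were 10.2% against 10.4% in WT and 14.3% against 15.5% in 3SA.

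The share of genes with a 3SA muscle peak, within counting error of all names as deposited, was above it at both score limits, at equal length (59.2%, 45.2–71.8, against 42.1%), within 5000 bp (59.2%, 45.2–71.8, against 39.4%) and without repeat-centred peaks (73.5%, 59.7–83.8, against 54.9%). Within 5000 bp this also held for genes in muscle and not liver (40.8%, 28.2–54.8, against 26.9%). Within 50000 bp the WT muscle share (63.3%, 49.3–75.3, against 54.4%) and that of both muscle lists (57.1%, 43.3–70, against 43.5%) no longer exceeded all names beyond counting error. At a score of at least 100, genes with such a peak in 3SA and none in WT muscle exceeded all names (16.3%, 8.51–29.0, against 3.78%). Lower-scoring WT peaks of these genes were not counted.

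With lists of equal length, genes in WT muscle alone numbered 7 (14.3%, against 20.3% of all names) and in 3SA muscle alone 6 (12.2% against 17.3%). Promoter peaks in 3SA muscle then numbered 3. Within 5000 bp of the TSS, 15 genes were in both muscle lists (30.6%, against 16.5% of all names) and 8 in WT muscle alone (16.3% against 12.1%). In WT liver 11 genes, 3 slow and 3 fast, had a peak (22.4% against 23.2%). Peaks within 1000 bp of the TSS numbered 10 in WT muscle, 11 in 3SA muscle and 9 in 3SA liver, more than the annotated promoter peaks. The relaxed motif was in 7 WT muscle, 8 3SA muscle and 4 WT liver peaks, and the ERRE in whole intervals in 10 3SA muscle and 4 WT liver peaks. The ERRE core gave 13, 24, 11 and 15 peaks. A shared muscle site was found for 19 genes with centres within 1000 bp and 18 by shared bases. For these looser rules no share of all names was computed. Without repeat-centred peaks it was 13 genes (26.5%, 16.2–40.3, against 11.5% of all names). A distance of 50000 bp and leaving out repeat-centred peaks kept each count computed under them within 1.5 times. Giving ties their last rank moved 20 of 67 best muscle ranks by more than that. Depth is unknown, so an absent peak is not evidence that ERRα was absent.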
